A study of Mus musculus with 18 samples.

Results

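The comparison described here set primary preadipocytes given TGF-b1 together with the kinase inhibitor SB431542 against untreated mock cells. It used 6 of the 18 samples of the series, 3 libraries with TGF-b1/SB431542 and 3 mock libraries, taken by their treatment labels. The table of undifferentiated cells held 17001 gene symbols, of which 14078 had enough counts to be tested. All groups compared or quoted here were cells of wild-type (WT) mice on a control diet (CD), isolated from epididymal white adipose tissue (eWAT). The groups were TGF-b1 with SB431542, TGF-b1 alone, whose 3 libraries are quoted only for their levels and list medians, and mock. The other groups of the series hold cells from high-fat diet animals, and Itga5-High and Itga5-Low cells sorted and then differentiated, and entered no comparison. The undifferentiated high-fat diet libraries did enter the gene filter, the scaling and the shared estimate of spread. The labels give no dose, time or vehicle, and no group received SB431542 without TGF-b1. The inhibitor and any TGF-b1 action that escaped it therefore cannot be told apart, and every difference below belongs to the combination against mock. Samples were compared, not cells, so fewer cells of a type and less RNA per cell cannot be told apart.

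TGF-b1 binds a pair of receptor kinases at the cell surface, and the type I receptor then phosphorylates Smad2 and Smad3, which enter the nucleus with Smad4. In preadipocytes, the fibroblast-like precursors of fat cells, this pathway is known to promote matrix production and contractile stress fibres and to restrain adipogenesis. SB431542 blocks the type I receptors for TGF-b, activin and nodal but not those for bone morphogenetic proteins (BMPs). Cells in culture can make TGF-b and activin themselves, which gives an untreated culture some signal of its own.

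Expression is given in CPM, counts scaled to the same library size, with library totals adjusted by trimmed means (TMM). Values are those of single libraries or mean ± SD (n = 3 libraries in each group). A log2 fold change is always TGF-b1/SB431542 over mock and is given ± SE of the model. A gene was called when the adjusted p of edgeR's quasi-likelihood test was under 0.05 after Benjamini-Hochberg adjustment over all genes tested. For a gene that was not called, the 95% interval of its log2 fold change is given where it bears on the result. Total counts ranged from 11811028 to 12599425 with TGF-b1/SB431542, from 12235295 to 16130948 with TGF-b1 alone and from 11154449 to 13846886 in mock. Replicates of a group differed by little more than counting error (chi-square per degree of freedom 1.146 to 1.191). Nothing in the labels says that replicates came from separate animals or cultures. Their spread may therefore be technical, and the p-values speak for these libraries alone. As to the labelled cell type, all 13 fibroblast and preadipocyte markers were detected, Pdgfra at 464 ± 7.505 CPM with TGF-b1/SB431542 and 486 ± 1.83 CPM in mock. Of these markers 6 were called higher and 7 lower, or 7 higher and 4 lower with total-count scaling, which turned the sign of their small median. Single markers were not all as stable as Pdgfra, with log2 changes from -2.11 to 1.88. Their sum, which includes Col1a1, Col1a2 and Col3a1, was 13853 to 13969 CPM with TGF-b1/SB431542 and 25016 to 25154 CPM in mock. Markers of other cells were also present, the macrophage, endothelial and mesothelial lists summing to 639 to 657, 728 to 749 and 2639.8 to 2675 CPM in mock. Only 1 of 11 lymphocyte markers was tested, so these cells were not assessed.

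Most genes differed from mock, usually by little. Of the 14078 genes tested, 4303 (30.6%) were called higher and 4284 (30.4%) lower with TGF-b1/SB431542, which together make 61.0%. Counts of called members of any list below are to be read beside these shares. A change of at least 1 log2 unit was found in 1102 called genes on the higher side (7.83%) and 400 on the lower side (2.84%). The 3 TGF-b1/SB431542 libraries did not overlap the 3 mock libraries in 9015 genes (64.0%). The median log2 change over all genes was 0.0063 and the median size of a change 0.239. Scaling by total counts moved the median of all genes to 0.116 and the share of higher genes among those called to 67.7%, against 50.1% with TMM. Where that scaling turned the balance of a list described below, or the sign of its median, its counts or median are given too.

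Genes were named by a fixed rule, described with the processing, and list members quoted outside that rule were chosen after their values were seen. Across the gene lists, the medians ran from elastic fibre genes at -0.94 log2 to interferon-stimulated effectors at 1.88 log2. After elastic fibre genes the lowest medians were those of TGF-b and Smad3 targets, contractile genes, amino acid and integrated stress genes, ER genes and cholesterol genes. Of the other matrix lists, collagen processing genes and collagen chains had medians of -0.48 and -0.35 log2. Laminins, matrix proteases and small leucine-rich proteoglycans did not share this, with medians of -0.021, 0.085 and 0.36 log2. Next below the interferon-stimulated effectors stood adipokines, chemokines, macrophage markers, MHC class I and II, endothelial markers, angiopoietins, lipid droplet genes and complement. Medians of TGF-b1 alone over mock are quoted beside some lists. Both comparisons use the same mock libraries, so those medians are only set side by side.

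**Figure D1:**
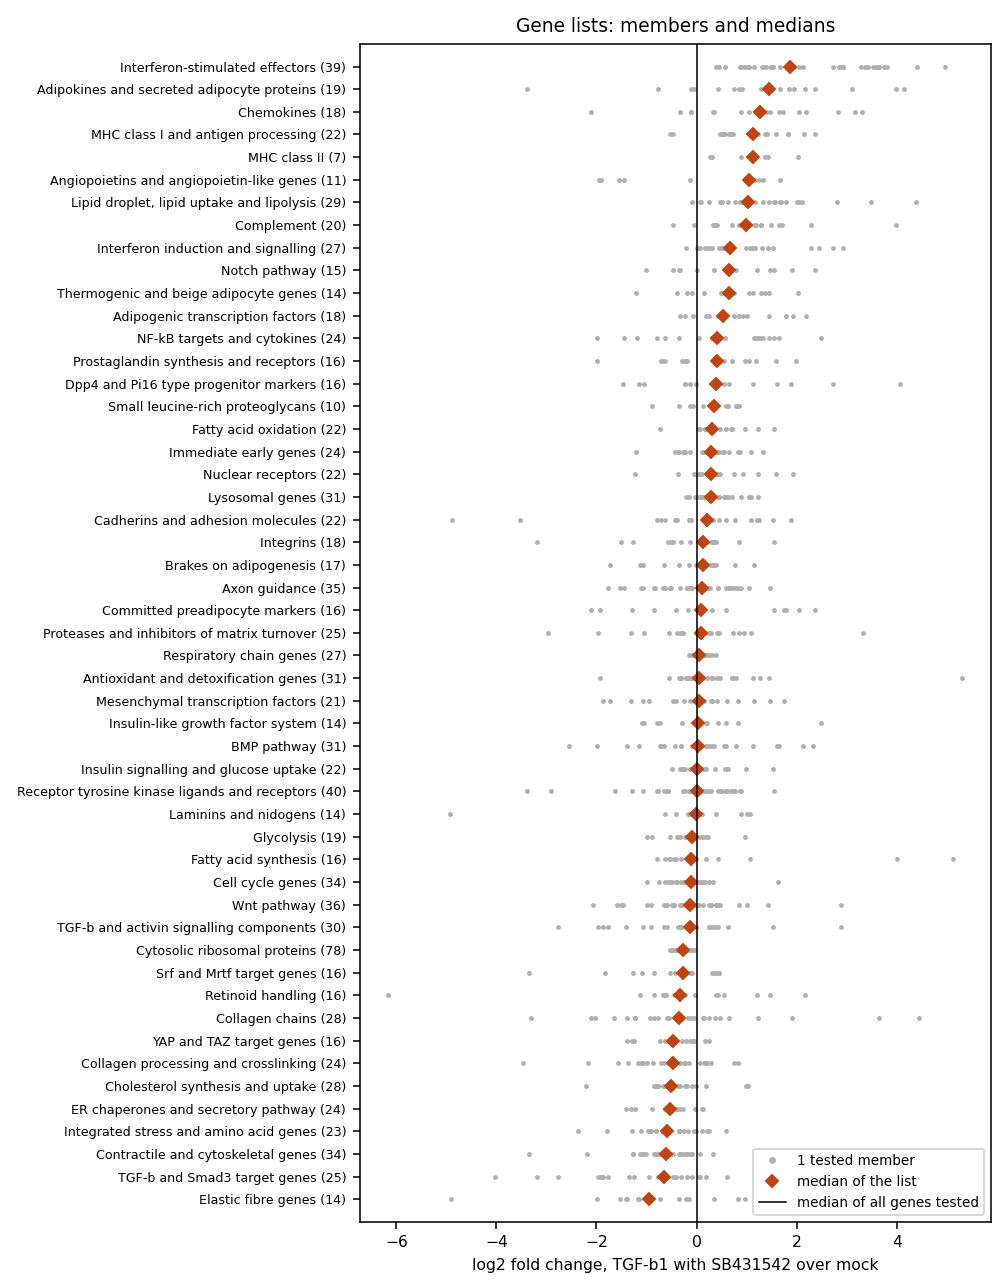
Log2 fold change of TGF-b1 with SB431542 over mock for the tested members of each list drawn (grey points, number in brackets) with the median of the list (red diamonds). Marker lists of fibroblasts and of other cell types (macrophage, endothelial, mesothelial, pericyte, lymphocyte) are not drawn. The black line is the median of all genes tested, 0.0063. The medians span -0.94 for elastic fibre genes to 1.88 for interferon-stimulated effectors.

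Among named genes the one farthest below mock was Crabp2, which encodes a carrier of retinoic acid. It stood at 0.216, 0.221 and 0.231 CPM with TGF-b1/SB431542 and at 17.7, 15.8 and 16.3 CPM in mock. Only 9 counts over the 3 TGF-b1/SB431542 libraries lie behind the first values, so its log2 change of -6.16 ± 0.47 is imprecise. Lama1, the laminin alpha 1 chain of basement membranes, was at 1.44, 1.25 and 0.692 CPM with TGF-b1/SB431542 and at 34.4, 33.8 and 36.2 CPM in mock. Its groups lay far apart, and it fell by 30.3-fold (edgeR adjusted p = 1.63e-32). With TGF-b1 alone Lama1 was at 30.96, 28.6 and 33.2 CPM, just below every mock library and far above those with the inhibitor. Ncam1, an adhesion molecule of nerve and mesenchymal cells, was at 2.96, 3.24 and 3.38 CPM with TGF-b1/SB431542 and at 95.8, 96.4 and 92.1 CPM in mock. TGF-b1 alone had Ncam1 at 423, 426 and 421 CPM, above every mock library. Mfap4, a microfibril-associated glycoprotein, was at 0.865, 1.398 and 0.615 CPM with TGF-b1/SB431542 and at 31.9, 28.2 and 27.5 CPM in mock. Cdh3, which encodes P-cadherin, was at 10.9, 10.96 and 11.5 CPM with TGF-b1/SB431542, at 57.2, 58.3 and 62.03 CPM with TGF-b1 alone and at 126, 125 and 132 CPM in mock. For Cdh3 both treated groups lay below mock, the one with the inhibitor farther.

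Several of the other genes that fell most are matrix or matricellular genes. Ccn4 and Ccn5, secreted matricellular proteins, changed by -3.55 ± 0.046 and -3.09 ± 0.05 log2. Cilp, a secreted cartilage matrix protein, changed by -4.03 ± 0.25 log2 from 547 counts over the mock libraries. Has1, a hyaluronan synthase, was at 1.51, 2.13 and 1.84 CPM with TGF-b1/SB431542 and at 15.5, 16.5 and 14.6 CPM in mock. Krt14, an epithelial keratin, was at 2.24, 1.398 and 1.84 CPM with TGF-b1/SB431542 and at 22.5, 20.4 and 22.8 CPM in mock. These genes were chosen on the condition that no library of either group overlapped the other, which held for 64.0% of all genes tested. Megf10, an engulfment receptor, and Anxa8, an annexin, changed by -3.80 ± 0.27 and -3.51 ± 0.15 log2 at low counts.

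Among the genes that rose most, Car3, a carbonic anhydrase abundant in adipocytes, was at 256, 257 and 249 CPM with TGF-b1/SB431542 and at 6.85, 6.297 and 4.97 CPM in mock. It rose by 41.9-fold (edgeR adjusted p = 3.59e-49). Enpp2, which encodes the secreted lysophospholipase autotaxin, was at 166, 159.7 and 159 CPM with TGF-b1/SB431542 and at 12.8, 13.2 and 13.5 CPM in mock. Clec3b, which encodes tetranectin and marks a class of adipose progenitors, was at 36.9, 40.4 and 37.96 CPM with TGF-b1/SB431542 and at 2.28, 2.19 and 2.399 CPM in mock. Every SB431542 library exceeded every mock library for these 3 genes, which was a condition of their choice. Col6a5, a collagen VI chain, was at 21.1, 24.3 and 21.98 CPM with TGF-b1/SB431542 and at 1.14, 0.9198 and 1.03 CPM in mock. The other genes among the 15 that rose most were Adipoq, Cfd, Mlxipl and Adrb3 of adipocytes and the interferon-stimulated genes Ifit1, Ifit3, Ifit3b, Oas2, Iigp1, Cmpk2 and Ifi44. Ifi44 was at 15.7, 16.9 and 13.3 CPM with TGF-b1/SB431542 and at 1.14, 1.56 and 1.199 CPM in mock, and values of the others are given with their groups.

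**Figure D2:**
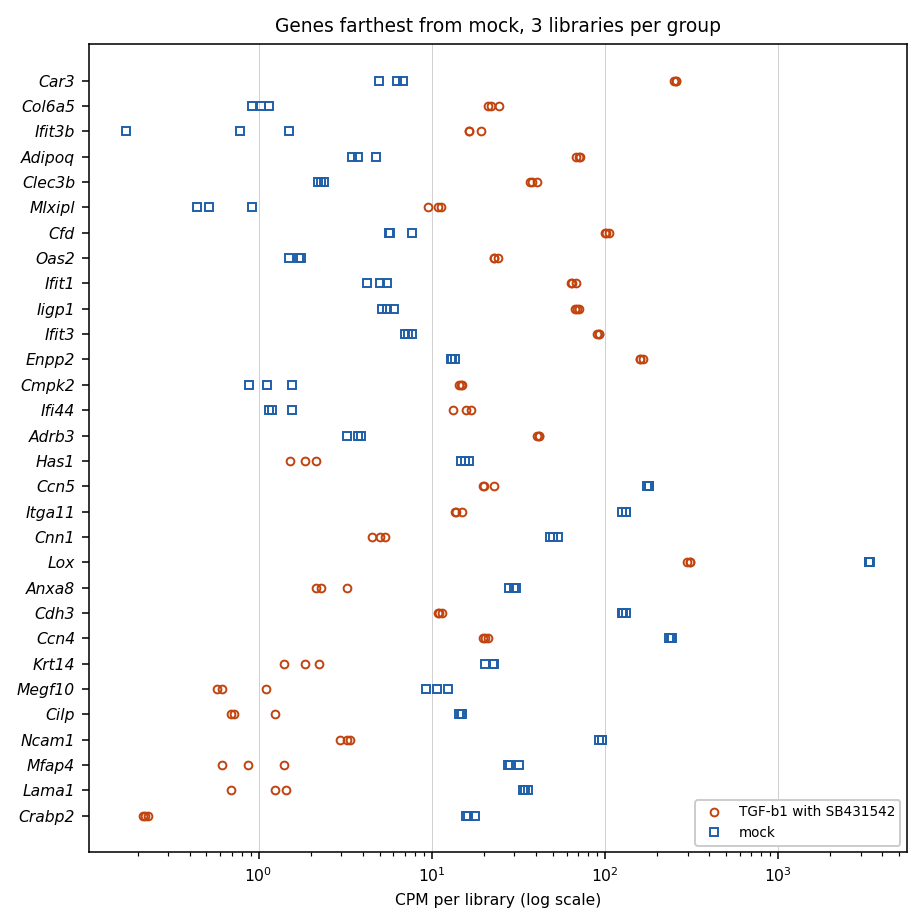
CPM in each library (log scale) of the 15 genes that rose most and the 15 that fell most, chosen among called genes that reached 10 CPM in either group and whose libraries did not overlap. Red circles are TGF-b1 with SB431542 and blue squares mock, 3 libraries each. Lox had the highest level of these genes in mock, at 3359, 3348 and 3387 CPM.

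Among the components of TGF-b and activin signalling, 17 of 30 were called lower, 8 higher and 5 were not called, with a median of -0.14 log2. Over all genes 30.4% were lower and 30.6% higher. With scaling by total counts the split was 13 lower and 12 higher, at a median of -0.029, so its direction is not firm. Of the 9 feedback inhibitors and antagonists 7 were lower, led by Pmepa1, which holds back receptor-activated Smads, at 27.7, 28.6 and 30.4 CPM with TGF-b1/SB431542 and 195, 193 and 201 CPM in mock. Pmepa1 was at 666, 669 and 662 CPM with TGF-b1 alone, so the 3 groups do not overlap. Smad7, the inhibitory Smad, was at 54.9, 55.8 and 58.6 CPM with TGF-b1/SB431542 and at 87.4, 92.7 and 86.4 CPM in mock. Skil, a co-repressor of Smads, changed by -1.77 ± 0.05 log2.

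Inhba, which encodes the activin A subunit, was at 31.4, 33.98 and 31.4 CPM with TGF-b1/SB431542 and at 129.5, 127 and 123 CPM in mock, a 3.92-fold drop. Inhbb, the activin B subunit, was at 335, 340.2 and 339 CPM with TGF-b1/SB431542 and at 339.9, 339.9 and 339.8 CPM in mock, while TGF-b1 alone had 49.3, 49.1 and 50.97 CPM. Inhbb was therefore not called against mock, with a 95% interval of -0.042 to 0.028 log2. The ligand Tgfb1 changed by -0.14 ± 0.034 log2 and Tgfb2 by 0.25 ± 0.049, both small. Fstl3, a secreted binder of activins, was at 12.1, 10.9 and 10.7 CPM with TGF-b1/SB431542 and at 41.7, 41.96 and 40.3 CPM in mock.

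Of the latent TGF-b binding proteins, which store the cytokine in the matrix, Ltbp2 changed by -1.41 ± 0.014 log2 and Ltbp1 by 1.52 ± 0.046. Ltbp1 was at 98.6, 98.5 and 99.7 CPM with TGF-b1/SB431542, at 116, 118 and 115 CPM with TGF-b1 alone and at 36.03, 32.5 and 35.1 CPM in mock, so both treated groups exceeded mock. Of the 7 receptors 4 were higher, 2 lower and 1 not called, at a median of 0.25 log2. Tgfbr1, the main target of SB431542, changed by -0.91 ± 0.033 log2 and Tgfbr3, the co-receptor betaglycan, by 0.37 ± 0.02. Smad2 was at 63.3 ± 4.09 CPM with TGF-b1/SB431542 and 63.5 ± 1.77 CPM in mock, with a 95% interval of the difference of -0.09 to 0.081 log2.

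Known targets of TGF-b and Smad3 were lower than in mock in 20 of 25, higher in 2 and not called in 3, with a median of -0.65 log2. TGF-b1 alone had a median of 0.83 log2 against mock on this list. Itga11, a collagen-binding integrin chain, was at 13.6, 13.8 and 14.98 CPM with TGF-b1/SB431542 and at 132, 131 and 125 CPM in mock. Every SB431542 library lay below every mock library, a condition of its choice among the 15 genes that fell most. Ccn2, a matricellular protein shared with the YAP and TAZ list, changed by -1.25 ± 0.011 log2 and Postn, which encodes periostin, by -1.35 ± 0.012. The targets that rose were Snai2, a transcription repressor of mesenchymal cells, at 0.60 ± 0.067 log2, and Junb, an AP-1 subunit, at 0.19 ± 0.026 log2. Nox4, the NADPH oxidase of myofibroblasts, changed by -0.32 ± 0.092 log2 only, at 12.7 ± 1.28 CPM with TGF-b1/SB431542, 90.6 ± 3.23 CPM with TGF-b1 alone and 15.8 ± 0.152 CPM in mock.

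The contractile apparatus was lower almost throughout. Of 34 contractile and cytoskeletal genes, 31 were called lower, 2 higher and 1 was not called, at a median of -0.62 log2. At least 1 log2 unit separated 8 of the lower ones from mock, against 2.84% of all genes. Cnn1, the thin filament protein calponin, was at 5.34, 5.002 and 4.53 CPM with TGF-b1/SB431542 and at 47.98, 53.3 and 49.9 CPM in mock, a 10.2-fold drop. Actg2, smooth muscle gamma actin, was at 16.4, 16.1 and 15.3 CPM with TGF-b1/SB431542 and at 36.1, 39.1 and 40.3 CPM in mock. Tagln, which encodes the actin-binding protein transgelin, changed by -1.27 ± 0.012 log2. All 11 thin filament genes and 10 of 11 linker genes were lower, and the myosins had a median of -0.42 log2. The higher genes were Myh11, the smooth muscle myosin heavy chain, at 209 ± 3.12 CPM with TGF-b1/SB431542 and 167 ± 2.79 CPM in mock, and Tln1, which encodes talin, at 0.06 ± 0.013 log2. Myh11 is also a pericyte marker; of the 10 pericyte and smooth muscle markers 6 were higher and 3 lower, and their summed level was 870.0 to 896 CPM with TGF-b1/SB431542 and 584 to 599 CPM in mock. Their part in these results was not tested.

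Promoters of contractile genes often carry the CArG box, the element bound by serum response factor. Promoter sequences from RefSeq (GRCm38.p6, which is mm10), 250 bases before to 50 after the start, were found for 30 of the 34 members. On either strand 7 of the 30 (23.3%) held the box, against 174 of 11111 tested genes with a promoter (1.57%). The 60 bases around the box are shown for 3 actin and calponin genes that were lower, with the box in capitals, so that its letters can be compared. The box ended 63, 46 and 80 bases upstream of the start of Acta1, Cnn2 and Actg1. A match is a description of the letters and not a bound site.
Acta1, chr8:123894814-123894873 (-): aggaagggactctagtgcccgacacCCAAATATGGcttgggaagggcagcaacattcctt
Cnn2, chr10:79988519-79988578 (+): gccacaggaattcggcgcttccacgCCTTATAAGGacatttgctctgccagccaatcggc
Actg1, chr11:120348551-120348610 (-): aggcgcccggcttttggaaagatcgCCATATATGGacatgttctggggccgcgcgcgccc
Acta1, skeletal muscle actin, was low in both groups, at 1.08, 0.662 and 0.922 CPM with TGF-b1/SB431542 and 5.01, 3.04 and 4.45 CPM in mock. Cnn2, a calponin of non-muscle cells, was at 277, 276 and 274 CPM with TGF-b1/SB431542 and at 467, 459 and 452 CPM in mock. Actg1, cytoplasmic gamma actin, changed by -0.66 ± 0.0077 log2. Being lower was a condition of the choice of these 3, and their groups did not overlap, as in 64.0% of all genes tested. Other members with the box included Myl9, Myl6 and Actc1, at -0.54, -0.19 and -0.12 log2. The related list of Srf and Mrtf targets split more, with 11 of 16 lower and 5 higher. Its higher members included the immediate early genes Egr1 at 0.44 ± 0.028 log2 and Egr2 at 0.38 ± 0.074, while Fhl2, a LIM domain cofactor of transcription, was at 20.4, 22.3 and 21.2 CPM with TGF-b1/SB431542 and 77.8, 74.4 and 74.4 CPM in mock. YAP and TAZ targets, which respond to tension and cell shape, were lower in 13 of 16 and higher in 2, at a median of -0.46 log2. Nuak2, a stress kinase, and F3, tissue factor, changed by -1.39 ± 0.095 and -1.28 ± 0.014 log2. The core targets Ankrd1 and Ccn1 changed by -0.56 ± 0.047 and -0.44 ± 0.014 log2.

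Collagen genes did not move as one. Of 28 chains tested, 18 were lower, 8 higher and 2 were not called, with a median of -0.35 log2, or 15 lower and 11 higher by total-count scaling. The fibrillar chains fell in 6 of 7. Col1a1, the major chain of collagen I, was at 2064, 2079 and 2056 CPM with TGF-b1/SB431542 and at 8965, 8963 and 8863 CPM in mock. Col3a1, of collagen III, was at 3999, 4044 and 3996 CPM with TGF-b1/SB431542 and 5253, 5202 and 5259 CPM in mock. Divided by transcript length, Col3a1 stood at 721 and Col1a1 at 348 CPM per kilobase with TGF-b1/SB431542, and at 941 and 1506 CPM per kilobase in mock. Per length, Col3a1 was the more abundant of the pair with TGF-b1/SB431542 and Col1a1 in mock. Col12a1, a fibril-associated collagen, changed by -2.02 ± 0.018 log2. Col11a1, a minor fibrillar chain that nucleates fibrils, was at 0.649, 0.368 and 0.538 CPM with TGF-b1/SB431542 and at 4.57, 4.95 and 6.25 CPM in mock.

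Other collagens rose. Col5a3, a collagen V chain, was at 141, 147 and 148 CPM with TGF-b1/SB431542 and at 61.6, 63.8 and 61.4 CPM in mock, whereas its partners Col5a1 and Col5a2 changed by -0.85 ± 0.013 and -1.38 ± 0.01 log2. Of the 5 collagen VI chains, 4 rose and 1 fell. The rise was small in Col6a1 and Col6a3, at 0.12 ± 0.015 and 0.37 ± 0.013 log2, and large in Col6a5 and Col6a6. Col6a6 was at 6.56, 7.28 and 7.68 CPM with TGF-b1/SB431542 and at 0.439, 0.637 and 0.5997 CPM in mock. Of the 7 basement membrane chains 4 were lower, 1 higher and 2 not called, Col4a1, a main chain of collagen IV, at -0.16 ± 0.009 log2.

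Enzymes and chaperones that process collagen were lower in 17 of 24 and higher in 7, at a median of -0.48 log2. All 5 crosslinking enzymes were lower. Lox, lysyl oxidase, was at 309, 308 and 298 CPM with TGF-b1/SB431542 and at 3359, 3348 and 3387 CPM in mock, a 11.03-fold drop, while its relatives Loxl1 and Loxl2 changed by -0.25 ± 0.013 and -0.33 ± 0.014 log2. P4ha3, a prolyl hydroxylase of collagen, was at 4.33, 4.78 and 5.302 CPM with TGF-b1/SB431542 and at 21.8, 23.3 and 19.4 CPM in mock. Serpinh1, the collagen chaperone Hsp47, changed by -0.86 ± 0.0084 log2. The procollagen proteases divided evenly, Adamts3 falling by 2.96-fold and Adamts14 and Adamts2 rising by 1.77-fold and 1.21-fold.

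Of 14 elastic fibre genes 10 were lower, 3 higher and 1 not called, and their median of -0.94 log2 was the lowest of the lists. Their median with TGF-b1 alone was -0.21 log2. Fbn1, the fibrillin of microfibrils, changed by -1.17 ± 0.0096 log2, and Fbn2, its developmental relative, was at 4.04, 3.604 and 2.92 CPM with TGF-b1/SB431542 and 14.7, 14.01 and 13.6 CPM in mock. Fbln5, a fibulin needed for elastic fibre assembly, was at 60.4, 55.6 and 62.2 CPM with TGF-b1/SB431542 and at 167, 176 and 171 CPM in mock. Elastin itself went the other way. Eln was at 217, 219 and 222 CPM with TGF-b1/SB431542, at 61.8, 62.6 and 67.4 CPM with TGF-b1 alone and at 112, 114 and 109 CPM in mock, and the 3 groups do not overlap. Efemp1, a fibulin that binds basement membrane, also rose, by 0.83 ± 0.016 log2.

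Of 14 laminins, nidogens and related proteoglycans of the basement membrane 7 were higher and 7 lower at a median of -0.021 log2. With total counts 8 were higher and 4 lower, at a median of 0.089. Beside the drop of Lama1, Lamc3, a laminin gamma chain, was at 114, 124 and 117 CPM with TGF-b1/SB431542 and at 59.1, 56.7 and 61.2 CPM in mock. Agrn, which encodes agrin, changed by 0.88 ± 0.042 log2 and Nid2, a nidogen, by -0.40 ± 0.013. Small leucine-rich proteoglycans, which coat collagen fibrils, were higher in 5 of 10, with 1 lower. The lower one was Bgn, which encodes biglycan, at -0.89 ± 0.008 log2; Dcn, which encodes its relative decorin, was at 1678, 1680.4 and 1675 CPM with TGF-b1/SB431542 and at 970.5, 969.7 and 993 CPM in mock.

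Matrix proteases and their inhibitors went in both directions, 14 of 25 higher (56%) and 9 lower (36%), against 30.6% and 30.4% of all genes. Timp1 and Timp3, inhibitors of metalloproteases, changed by -1.32 ± 0.017 and -1.06 ± 0.013 log2, whereas Timp2 changed by 0.41 ± 0.01. The stromelysin Mmp3 was at 354, 349.6 and 349 CPM with TGF-b1/SB431542 and at 183, 182 and 182 CPM in mock, and Mmp10, its close relative, at 1.15, 0.956 and 1.23 CPM with TGF-b1/SB431542 and 9.67, 9.06 and 7.45 CPM in mock. Mmp3 thus rose while Mmp10 fell. Mmp12 and Mmp9, which macrophages also make, changed by 1.09 ± 0.019 and 3.34 ± 0.32 log2. Mmp9 had only 22 counts over the mock libraries. It was at 4.98, 6.25 and 6.99 CPM with TGF-b1/SB431542 and at 7.25, 7.09 and 7.82 CPM with TGF-b1 alone, so both treated groups exceeded mock. Mmp12 with TGF-b1 alone was at 34.4, 35.6 and 34.7 CPM, below mock. All 16 macrophage markers were higher with TGF-b1/SB431542 than in mock. Their sum was 1339 to 1354 CPM with TGF-b1/SB431542 and 639 to 657 CPM in mock, and their part in the protease changes was not tested.

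Integrins split into 8 higher (44.4%) and 7 lower (38.9%) of 18, against 30.6% and 30.4% of all genes. Itga5, the fibronectin receptor chain by which the study sorted cells, was at 152, 161 and 154 CPM with TGF-b1/SB431542 and at 383, 376 and 369 CPM in mock. Itgb5, a vitronectin receptor chain, was at 159, 158 and 160.2 CPM with TGF-b1/SB431542 and at 449.8, 454 and 454 CPM in mock. Itga6, which binds laminins, was at 66.3, 67.7 and 71.9 CPM with TGF-b1/SB431542, at 63.6, 64.3 and 64.9 CPM with TGF-b1 alone and at 37.8, 38.8 and 37.2 CPM in mock, so it was higher in both treated groups. Itga4, common on leukocytes, changed by 1.546 ± 0.15 log2. Cadherins and other adhesion molecules were higher in 11 of 22 and lower in 8. Cdh13, or T-cadherin, a receptor for adiponectin, was at 61.1, 64.2 and 61.6 CPM with TGF-b1/SB431542 and at 26.1, 18.3 and 21.3 CPM in mock. Alcam, an adhesion molecule of the immunoglobulin family, changed by 1.26 ± 0.06 log2 and Icam2, an endothelial one, by 1.89 ± 0.12. Vcam1 was at 224, 216 and 214 CPM with TGF-b1/SB431542, 80.8, 89.2 and 89.4 CPM with TGF-b1 alone and 387, 373 and 376 CPM in mock, below mock in both treated groups.

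**Figure D3:**
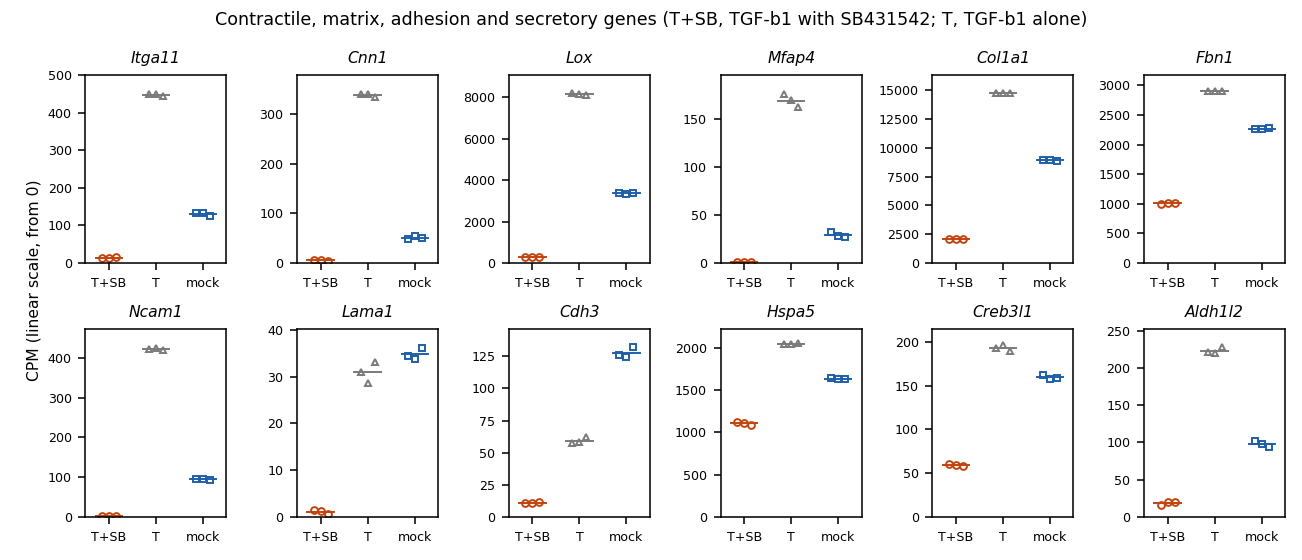
CPM in each library of 12 contractile, matrix, adhesion and secretory genes (points) with the mean of 3 libraries (lines), for TGF-b1 with SB431542, TGF-b1 alone and mock. Every gene is lower with TGF-b1/SB431542 than in mock; Lama1 and Cdh3 are not above mock with TGF-b1 alone, whereas Ncam1, Lox and Itga11 are.

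Genes of the secretory pathway were mostly lower. Of 24 chaperones, coat proteins and regulators of the endoplasmic reticulum (ER), 21 were lower, 2 higher and 1 was not called, at a median of -0.54 log2. Hspa5, the ER chaperone BiP, was at 1123, 1106 and 1088 CPM with TGF-b1/SB431542 and at 1643, 1632 and 1626 CPM in mock. All 6 vesicle coat and export genes were lower, among them Sec23a, a COPII subunit needed to export collagen, at -0.89 ± 0.031 log2. Creb3l1, a factor that activates collagen and secretory genes in bone, was at 60.5, 59.9 and 58.1 CPM with TGF-b1/SB431542 and at 162, 157 and 158 CPM in mock. Creb3l2, its relative in cartilage, and Kdelr3, a retrieval receptor, changed by -1.22 ± 0.045 and -1.30 ± 0.039 log2. Xbp1, a factor of the unfolded protein response, was higher, by 0.11 ± 0.027 log2.

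Promoters were searched on both strands for the ER stress element, CCAAT and CCACG with any 9 bases between them, which reads CGTGG, 9 bases and ATTGG from the opposite strand. It occurred in 6 of the 20 members with a promoter sequence (30%) and in 18 of 11111 tested genes (0.162%). The element with its 25 flanking bases on each side is shown for 4 of these 6, all of them lower, with capitals marking it. It ended 107, 88, 46 and 79 bases upstream of the start of Creld2, Hsp90b1, Hspa5 and Pdia6. The promoter of Hsp90b1 holds 2 matches, of which the one nearer to the start is shown.
Creld2, chr15:88819495-88819563 (+): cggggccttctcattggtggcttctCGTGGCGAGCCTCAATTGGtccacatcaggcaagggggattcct
Hsp90b1, chr10:86705508-86705576 (-): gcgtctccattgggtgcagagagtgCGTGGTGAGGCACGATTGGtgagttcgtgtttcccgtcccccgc
Hspa5, chr2:34772000-34772068 (+): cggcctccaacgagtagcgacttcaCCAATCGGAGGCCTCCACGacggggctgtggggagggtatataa
Pdia6, chr12:17266466-17266534 (+): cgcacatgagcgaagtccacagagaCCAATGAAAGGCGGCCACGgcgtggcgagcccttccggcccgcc
Creld2, a chaperone-like secreted protein, was at 47.1, 51.5 and 47.3 CPM with TGF-b1/SB431542 and at 75.5, 75.2 and 74.5 CPM in mock. Hsp90b1, the ER form of Hsp90, changed by -0.62 ± 0.0099 log2 and Pdia6, a disulfide isomerase, by -0.51 ± 0.015. All 4 genes, Hspa5 included, were called lower, as were 21 of the 24 members of the list and 30.4% of all genes. Whether the element bears on these changes was not tested.

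Genes of amino acid supply were mostly lower too. On the list of the integrated stress response and amino acid synthesis 17 of 23 were lower, 3 higher and 3 not called, at a median of -0.59 log2, against 0.61 with TGF-b1 alone. Aldh1l2, a mitochondrial enzyme of one-carbon metabolism, was at 16.5, 19.7 and 20.4 CPM with TGF-b1/SB431542 and at 102, 98.1 and 93.8 CPM in mock. Pycr1, which makes proline, an amino acid abundant in collagen, was at 5.41, 4.78 and 5.76 CPM with TGF-b1/SB431542 and at 17.6, 18.2 and 19.8 CPM in mock. Slc7a5, a transporter of large neutral amino acids, was at 57.98, 58.6 and 57.6 CPM with TGF-b1/SB431542 and at 139.9, 142 and 145 CPM in mock. The groups were separate for these 3 genes, and TGF-b1 alone had higher means than mock for each, at 223 ± 4.34, 30.8 ± 1.24 and 257 ± 8.58 CPM. In serine synthesis, Phgdh, Psat1 and Psph changed by -0.81 ± 0.031, -0.68 ± 0.027 and -0.81 ± 0.072 log2. Atf4, the factor that drives this list, changed by -0.35 ± 0.025 log2, while its stress target Ddit3 was higher, at 0.21 ± 0.067, and Chac1 was not called, at -0.056 ± 0.087. Prodh, which degrades proline, was higher, by 0.59 ± 0.25 log2.

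Cytosolic ribosomal protein genes were lower in 74 of 78 with none higher, but by small amounts, with a median of -0.27 log2 and none past 1 log2 unit. With scaling by total counts 67 were lower and 1 higher, at a median of -0.161. Processed pseudogenes of this family can share reads, so single members are uncertain and none is named.

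Adipocyte genes were higher than in untreated cells. Of 18 adipogenic transcription factors, 15 were higher, 1 lower and 2 not called, at a median of 0.54 log2. Pparg, the central factor of adipogenesis, was at 91.4, 91.1 and 86.8 CPM with TGF-b1/SB431542 and at 27.1, 25.8 and 25.02 CPM in mock. Klf15, which acts late in differentiation, was at 23.6, 23.5 and 24.9 CPM with TGF-b1/SB431542 and at 6.24, 4.46 and 5.31 CPM in mock. Nr1h3, the oxysterol receptor LXR alpha, was at 32.5, 35.4 and 36.7 CPM with TGF-b1/SB431542 and at 11.2, 8.14 and 8.57 CPM in mock. All SB431542 libraries exceeded all mock libraries for these factors. Cebpa changed by 1.002 ± 0.027 log2, while Cebpb, which acts at the start of differentiation, was the one lower factor, at -0.23 ± 0.022 log2. Genes known to hold adipogenesis back were mixed, 9 of 17 higher and 6 lower, or 9 and 4 with total counts. Runx1 and Runx2, factors of other mesenchymal and blood lineages, changed by -1.72 ± 0.051 and -1.07 ± 0.074 log2, and Sox9, a factor of chondrocytes and early preadipocytes, by 1.15 ± 0.082. Dlk1, the preadipocyte factor Pref-1, was not called, at 36.4, 38.1 and 36.4 CPM with TGF-b1/SB431542 and 36.5, 39.3 and 33.8 CPM in mock, although it was at 7.25, 7.89 and 5.73 CPM with TGF-b1 alone.

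Genes of lipid droplets, lipid uptake and lipolysis were higher in 27 of 29 with none lower, and 17 rose by at least 1 log2 unit, against 7.83% of all genes. Plin1, the droplet coat protein of mature fat cells, was at 66.6, 66.9 and 64.01 CPM with TGF-b1/SB431542 and at 8.96, 8.63 and 10.7 CPM in mock, a 7.01-fold rise (edgeR adjusted p = 1.36e-31). Lpl, lipoprotein lipase, was at 2779, 2815 and 2816 CPM with TGF-b1/SB431542 and at 1103, 1106 and 1126 CPM in mock. Fabp4, the fatty acid binding protein of adipocytes, was at 647, 645 and 637 CPM with TGF-b1/SB431542 and at 155, 155 and 159 CPM in mock. Lipolysis genes had the highest median of the roles, 1.67 log2. Adrb3, the adrenergic receptor of fat cells, was at 41.3, 40.4 and 41.7 CPM with TGF-b1/SB431542 and at 3.25, 3.89 and 3.77 CPM in mock. Lipe, hormone-sensitive lipase, was at 58.7, 59.2 and 60.6 CPM with TGF-b1/SB431542 and at 15.1, 13.02 and 13.5 CPM in mock. Both genes were separate between groups, which for Adrb3 was a condition of its choice among the genes that rose most. Pnpla2, the first lipase of the cascade, changed by 1.66 ± 0.044 log2.

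Of 19 adipokines and other proteins secreted by adipocytes, 14 were higher, 2 lower and 3 not called, at a median of 1.44 log2. Adipoq, which encodes adiponectin, was at 68.1, 71.1 and 71.9 CPM with TGF-b1/SB431542 and at 4.75, 3.47 and 3.77 CPM in mock. Cfd, adipsin, which activates the alternative complement pathway, was at 101, 101 and 106 CPM with TGF-b1/SB431542 and at 5.62, 7.71 and 5.74 CPM in mock. Agt, angiotensinogen, was at 192, 192 and 199.7 CPM with TGF-b1/SB431542 and at 39.1, 38.99 and 35.4 CPM in mock. The members did not all rise. Vegfa, the vascular growth factor, was at 111, 107 and 114 CPM with TGF-b1/SB431542 and at 190.4, 187 and 189 CPM in mock, and Metrnl was not called at -0.045 ± 0.035 log2.

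Insulin signalling changed little, with 9 of 22 higher, 6 lower and 7 not called at a median of 0.008 log2, or 14 higher and 3 lower by total counts. The largest change was that of Slc2a4, the insulin-regulated glucose transporter GLUT4, at 16.2, 15.6 and 18.98 CPM with TGF-b1/SB431542 and 5.097, 5.45 and 6.94 CPM in mock. The kinase gene Pik3ca was not called, with a 95% interval of -0.08 to 0.07 log2. Irs3, a rodent insulin receptor substrate, changed by 0.99 ± 0.16 log2 and Grb10, an inhibitor of the receptor, by -0.49 ± 0.016.

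Of 22 genes of fatty acid oxidation 17 were higher and 1 lower, at a median of 0.30 log2, and all 7 peroxisomal members were higher, such as Pex11a, which divides peroxisomes, at 1.22 ± 0.12 log2. Cpt1a, the mitochondrial entry step, was lower, at 70.2, 73.9 and 74.9 CPM with TGF-b1/SB431542 and 121, 123 and 119 CPM in mock. Of 16 genes of fatty acid synthesis 9 were lower and 5 higher, at a median of -0.11 log2, or 7 lower and 6 higher with total counts. Scd2 and Scd1, stearoyl-CoA desaturases, changed by -0.79 ± 0.012 and -0.53 ± 0.013 log2, and Fasn by -0.46 ± 0.017. Mlxipl, the glucose-sensing factor ChREBP that acts on these genes, was higher, at 11.2, 9.56 and 10.9 CPM with TGF-b1/SB431542 and 0.439, 0.9198 and 0.514 CPM in mock. Mlxipl thus rose while these 3 enzymes fell.

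Cholesterol synthesis genes mostly fell. Of 20 synthesis genes, 18 were lower, none higher and 2 not called, at a median of -0.56 log2, and TGF-b1 alone had a median of -0.51 log2 against mock. Mvd, a decarboxylase of the mevalonate pathway, was at 27.98, 29.7 and 31.9 CPM with TGF-b1/SB431542, at 35.6, 32.01 and 32.1 CPM with TGF-b1 alone and at 52.1, 53.99 and 53.5 CPM in mock. Cyp51, which demethylates lanosterol, was at 159.5, 156 and 161 CPM with TGF-b1/SB431542, at 219, 211 and 222 CPM with TGF-b1 alone and at 273, 272 and 287 CPM in mock. Lss, lanosterol synthase, was at 78.4, 78.4 and 69.01 CPM with TGF-b1/SB431542, at 57.9, 60.9 and 59.1 CPM with TGF-b1 alone and at 120.4, 112 and 115 CPM in mock. All 3 genes were lower than in every mock library in both treated groups, Lss farther with TGF-b1 alone. The 3 tested LXR targets in cholesterol export and uptake were all higher. Abcg1, a cholesterol exporter, was at 23.9, 23.6 and 21.3 CPM with TGF-b1/SB431542 and at 10.6, 11.2 and 11.8 CPM in mock. Mylip, a ubiquitin ligase induced by LXR, changed by 0.996 ± 0.096 log2 and Abca1 by 0.18 ± 0.024.

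Respiratory chain genes were close to mock, with 12 of 27 higher, 2 lower and 13 not called, at a median of 0.057 log2. With total counts 23 were higher and 0 lower, at a median of 0.166, so its count of higher genes rests on the scaling. Of 19 glycolysis genes 10 were lower and 6 higher, at a median of -0.098 log2, which turned to 0.011 with 8 higher and 7 lower by total counts. Hk2, a hexokinase, was at 51.4, 49.2 and 48.03 CPM with TGF-b1/SB431542 and at 98.3, 98.1 and 100 CPM in mock.

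**Figure D4:**
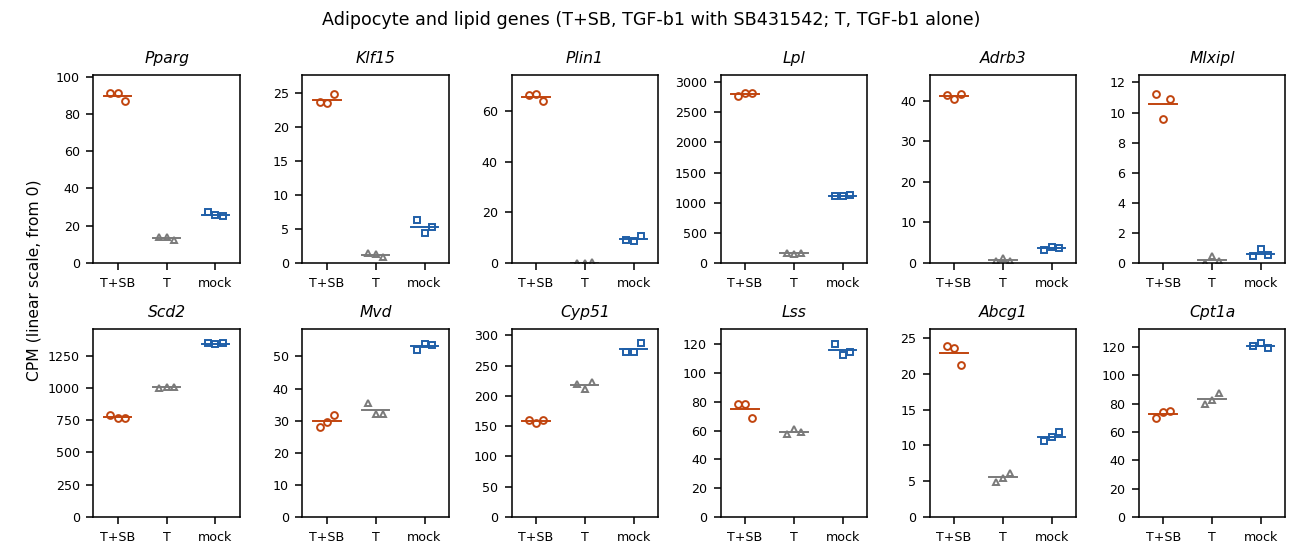
CPM in each library of 12 adipocyte and lipid genes (points) with the mean of 3 libraries (lines), for TGF-b1 with SB431542, TGF-b1 alone and mock. Adipocyte genes and Abcg1 are highest with TGF-b1/SB431542, while Scd2, Mvd, Cyp51 and Cpt1a are lowest there and Lss is lower than in mock.

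Interferon-stimulated genes were higher throughout. Interferons signal through Stat factors and Irf9 to antiviral effector genes. All 39 tested interferon-stimulated effectors were higher than in mock, 32 of them by at least 1 log2 unit, at a median of 1.88 log2. TGF-b1 alone had a median of -0.86 log2 against mock. Ifit1, which binds foreign RNA caps, was at 67.7, 63.6 and 64.5 CPM with TGF-b1/SB431542, at 2.13, 2.48 and 2.29 CPM with TGF-b1 alone and at 5.01, 4.25 and 5.48 CPM in mock (TGF-b1/SB431542 against mock, edgeR adjusted p = 1.71e-35). Isg15, a ubiquitin-like modifier, was at 50.8, 48.03 and 49.2 CPM with TGF-b1/SB431542 and at 6.94, 6.297 and 7.196 CPM in mock. Rsad2, the antiviral enzyme viperin, was at 19.2, 17.9 and 17.5 CPM with TGF-b1/SB431542 and at 1.85, 1.49 and 1.799 CPM in mock. The lowest SB431542 library exceeded the highest mock library several times over in each of these genes. Iigp1, an immunity-related GTPase, was at 69.3, 67.4 and 70.8 CPM with TGF-b1/SB431542 and at 6.06, 5.17 and 5.48 CPM in mock. Oas2, an oligoadenylate synthetase, changed by 3.80 ± 0.18 log2, Cmpk2, a mitochondrial nucleotide kinase beside Rsad2, by 3.59 ± 0.22, and Usp18, the brake that removes Isg15, by 2.73 ± 0.14. The weakest rises were those of Oasl1 and Ifitm2, at 0.40 ± 0.082 and 0.45 ± 0.022 log2.

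The interferon-stimulated response element, GAAA and GAAA with any 2 bases between them (TTTC, 2 bases and TTTC from the opposite strand), was searched on both strands of the promoters. It was present in 18 of the 29 effectors with a promoter sequence (62.1%), against 432 of 11111 tested genes (3.89%). The 60 bases around a match are shown for 5 members that rose by more than 2 log2 units. Each match within the 60 bases is in capitals. The promoters of Ifit3b, Ifit1 and Ifit3 hold 2 matches each, and only in Ifit1 do both fall within the stretch shown. In Ifit1 the match nearer to the start ended 75 bases upstream of it, in Rsad2 110 and in Oas3 65.
Ifit3b, chr19:34607778-34607837 (+): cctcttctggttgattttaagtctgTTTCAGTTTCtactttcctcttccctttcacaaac
Ifit1, chr19:34640779-34640838 (+): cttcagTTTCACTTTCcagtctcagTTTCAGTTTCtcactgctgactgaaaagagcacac
Ifit3, chr19:34583382-34583441 (+): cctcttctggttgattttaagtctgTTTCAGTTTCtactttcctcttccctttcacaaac
Rsad2, chr12:26456538-26456597 (-): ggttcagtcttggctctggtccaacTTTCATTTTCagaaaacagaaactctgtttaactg
Oas3, chr5:120777700-120777759 (-): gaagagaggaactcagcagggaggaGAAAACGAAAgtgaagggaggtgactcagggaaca
The stretches of Ifit3 and Ifit3b are identical, and as the genes are near-identical copies their reads may be shared between them. Ifit3 was at 90.1, 91.7 and 91.98 CPM with TGF-b1/SB431542 and at 7.73, 7.29 and 7.02 CPM in mock, and Ifit3b at 16.3, 16.5 and 19.1 CPM with TGF-b1/SB431542 and 1.49, 0.778 and 0.171 CPM in mock. Neither value is certain alone. Oas3 was at 7.79, 6.91 and 6.76 CPM with TGF-b1/SB431542 and at 1.05, 0.566 and 0.5997 CPM in mock.

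Upstream of the effectors, 23 of 27 genes of interferon induction and signalling were higher, 1 was lower and 3 were not called, at a median of 0.67 log2. All 8 tested sensors of foreign nucleic acid were higher. Zbp1, a sensor of Z-form nucleic acid, was at 24.4, 25.6 and 23.6 CPM with TGF-b1/SB431542 and at 4.92, 4.74 and 3.77 CPM in mock. Ifih1, the RNA sensor Mda5, changed by 1.43 ± 0.061 log2. Irf7, the factor that amplifies interferon production, was at 55.2, 53.4 and 56.1 CPM with TGF-b1/SB431542 and at 6.59, 8.42 and 6.43 CPM in mock. Stat2 was at 98.9, 101 and 98.3 CPM with TGF-b1/SB431542 and at 35.2, 34.4 and 33.5 CPM in mock. The receptor chain Ifnar1 was not called, at 99.2, 97.5 and 98.7 CPM with TGF-b1/SB431542 and 98.96, 99.6 and 96.9 CPM in mock, with a 95% interval of -0.067 to 0.065 log2. Jak2 was the one lower member, at -0.21 ± 0.035 log2. The interferon genes on the list, Ifnb1, Ifna4 and Ifng, were not analysed here.

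For antigen presentation by MHC class I, 20 of 22 genes were higher and 2 lower, at a median of 1.13 log2. All 9 class I chains, among them B2m, and all 5 immunoproteasome genes were higher. H2-K1, a classical class I chain, was at 549, 554 and 569.5 CPM with TGF-b1/SB431542 and at 251, 255 and 249 CPM in mock. Psmb9, an immunoproteasome subunit, was at 11.7, 11.8 and 10.1 CPM with TGF-b1/SB431542 and at 2.72, 2.55 and 2.31 CPM in mock. Nlrc5, the activator of class I genes, changed by 1.58 ± 0.11 log2. H2-Q6 and H2-Q7, nonclassical chains, changed by 2.36 ± 0.11 and 1.84 ± 0.12 log2, but these close paralogs can share reads. The lower members were Pdia3 and Calr, which also serve the ER as chaperones, at -0.53 ± 0.012 and -0.47 ± 0.0099 log2.

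MHC class II, found mainly on leukocytes, was higher in 6 of 7. Cd74, its invariant chain, was at 14.4, 14.1 and 12.1 CPM with TGF-b1/SB431542, at 2.900, 3.28 and 4.05 CPM with TGF-b1 alone and at 3.25, 3.25 and 3.43 CPM in mock. Chemokines were higher in 14 of 18 and lower in 3. Ccl2, which attracts monocytes, was at 294, 291 and 284 CPM with TGF-b1/SB431542 and at 92.1, 92.97 and 92.01 CPM in mock. Ccl3 and Ccl4, typical of macrophages, changed by 1.72 ± 0.14 and 2.04 ± 0.21 log2. Cxcl14, by contrast, was at 8.51, 10.6 and 8.91 CPM with TGF-b1/SB431542 and at 40.1, 40.7 and 39.7 CPM in mock, a 4.298-fold drop.

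Complement genes were higher in 18 of 20 with none lower, at a median of 0.99 log2, against -1.34 with TGF-b1 alone. C3, the central component, was at 1694, 1699 and 1714 CPM with TGF-b1/SB431542, at 46.99, 45.8 and 57.3 CPM with TGF-b1 alone and at 704, 695 and 682 CPM in mock. The C1q chains are on both the complement and the macrophage list, whose part was not tested. Cfp, which encodes properdin, was at 34.5, 33.2 and 34.4 CPM with TGF-b1/SB431542 and at 7.65, 7.22 and 6.08 CPM in mock. C5ar1, the receptor for the C5a fragment on myeloid cells, changed by 1.71 ± 0.066 log2.

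Inflammatory genes moved in both directions. NF-kB targets and cytokines were higher in 16 of 24, lower in 5 and not called in 3, at a median of 0.41 log2. Ptgs2, the inducible cyclooxygenase, was at 13.1, 14.6 and 15.6 CPM with TGF-b1/SB431542, at 685, 691 and 694 CPM with TGF-b1 alone and at 55.5, 57.4 and 58.9 CPM in mock. Lif and Il6, cytokines that signal through gp130, changed by -1.45 ± 0.062 and -1.18 ± 0.13 log2. Il1rn, the interleukin 1 receptor antagonist, was at 101, 98.9 and 95.1 CPM with TGF-b1/SB431542 and at 35.5, 32.1 and 33.2 CPM in mock. Nfkbia, the inhibitor that NF-kB induces, changed by 1.16 ± 0.051 log2. Of the synthases that use cyclooxygenase products, Ptges, which makes prostaglandin E2, was at 64.3, 64.5 and 70.2 CPM with TGF-b1/SB431542 and 28.3, 30.6 and 28.1 CPM in mock, while Ptgis, for prostacyclin, changed by -0.71 ± 0.019 log2. Hpgds, a prostaglandin D synthase of haematopoietic cells, changed by 1.58 ± 0.12 log2.

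Markers of other cells also differed from mock, not all in the same direction. All 16 macrophage markers were higher than in mock, 10 by at least 1 log2 unit, at a median of 1.24 log2. Their summed level was 1339 to 1354 CPM with TGF-b1/SB431542, 701 to 719 CPM with TGF-b1 alone and 639 to 657 CPM in mock, and none was at 0. Adgre1, the macrophage antigen F4/80, was at 37.8, 37.2 and 36.7 CPM with TGF-b1/SB431542 and at 16.8, 14.9 and 16.4 CPM in mock, and Mrc1, the mannose receptor, at 97.8, 98.3 and 93.9 CPM with TGF-b1/SB431542 and 27.9, 28.9 and 28.7 CPM in mock. Of 12 endothelial markers 9 were higher and 2 lower, their sum at 1284 to 1318 CPM with TGF-b1/SB431542 and 728 to 749 CPM in mock. Cldn5, a tight junction protein of endothelium, was at 102, 95.8 and 97.6 CPM with TGF-b1/SB431542 and at 18.02, 17.2 and 19.02 CPM in mock, whereas Vwf changed by -1.24 ± 0.091 log2. Of 11 mesothelial markers 7 were lower and 2 higher, with sums of 2385 to 2392 CPM with TGF-b1/SB431542 and 2639.8 to 2675 CPM in mock. The part of these cells in the interferon, complement, chemokine and MHC results was not tested.

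**Figure D5:**
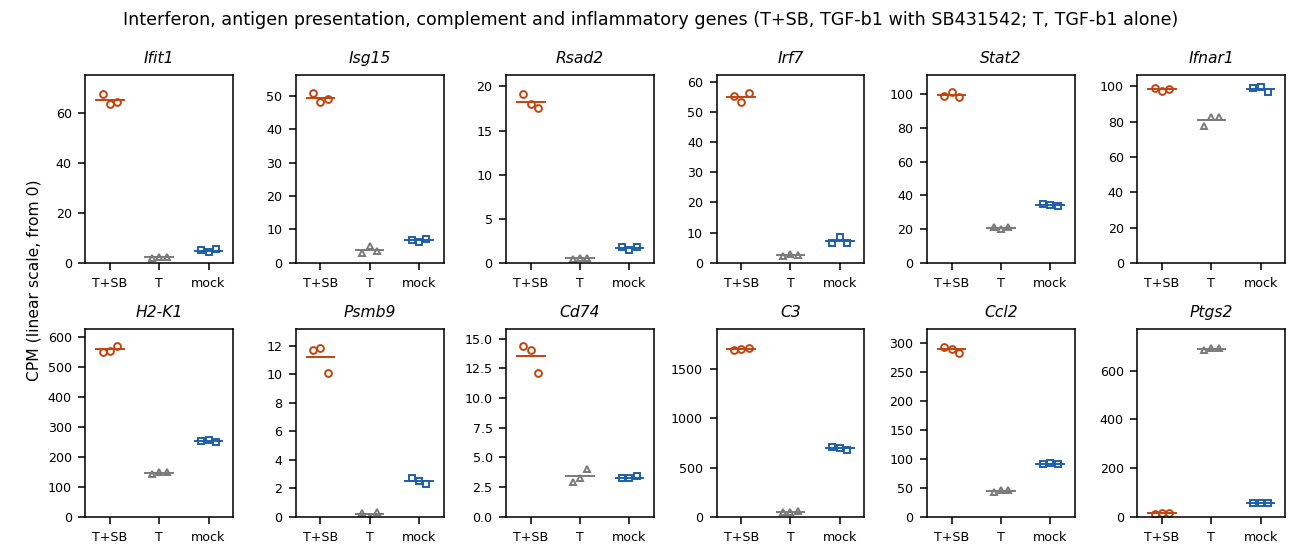
CPM in each library of 12 interferon, antigen presentation, complement and inflammatory genes (points) with the mean of 3 libraries (lines), for TGF-b1 with SB431542, TGF-b1 alone and mock. Ifnar1 lies at the mock level with TGF-b1/SB431542, Ptgs2 below it, and the other 10 genes above it.

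Among other signalling systems, the BMP pathway had 13 of 31 genes higher, 10 lower and 8 not called at a median of 0.027 log2, or 17 higher and 10 lower at 0.136 with total counts. With TMM its shares were 41.9% higher and 32.3% lower, against 30.6% and 30.4% of all genes. Single members changed strongly in both directions. The ligand Bmp2 was at 29.2, 35.5 and 32.6 CPM with TGF-b1/SB431542 and at 8.09, 7.29 and 6.94 CPM in mock, while Gdf6, another BMP-type ligand, was at 26.97, 24.1 and 20.4 CPM with TGF-b1/SB431542 and at 138, 138 and 145 CPM in mock. The antagonist Nog, which encodes noggin, was at 8.58 ± 1.397 CPM with TGF-b1/SB431542 and at 1.73 ± 0.573 CPM in mock, whereas the antagonist Bmper changed by -1.38 ± 0.03 log2. Target genes rose slightly or were not called, Id1 by 0.58 ± 0.034 log2 and Id3 by 0.25 ± 0.02; none of the 9 was lower. Gdf10, at 2.28 ± 0.305 CPM with TGF-b1 alone, was at 39.1 ± 0.634 CPM with TGF-b1/SB431542 and 37.00 ± 0.3496 CPM in mock and was not called.

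In the Wnt pathway 17 of 36 genes were lower, 9 higher and 10 uncalled, or 12 lower and 10 higher with total counts. The secreted antagonists Sfrp1 and Sfrp2 went opposite ways. Sfrp1 was at 205, 203 and 197 CPM with TGF-b1/SB431542, at 267, 268 and 259 CPM with TGF-b1 alone and at 602, 603 and 609 CPM in mock, and Sfrp2 at 176, 171 and 174 CPM with TGF-b1/SB431542, 1.45, 0.887 and 1.35 CPM with TGF-b1 alone and 82.3, 91.7 and 82.8 CPM in mock. Axin2 and Nkd1, feedback targets of canonical Wnt signalling, changed by 1.43 ± 0.092 and 0.84 ± 0.055 log2. Targets did not rise as a set. Of the 6 tested members listed as targets 2 were higher, 2 lower and 2 not called. Their median was 0.085 log2 and their lowest change -0.91 log2. The receptor Fzd2 and the ligand Wnt2 changed by -1.51 ± 0.047 and -1.47 ± 0.16 log2.

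Insulin-like growth factor binding proteins also diverged. Igfbp5 was at 253, 238 and 255 CPM with TGF-b1/SB431542, at 4.09, 4.699 and 3.64 CPM with TGF-b1 alone and at 43.9, 44.5 and 43.9 CPM in mock. Igfbp3 was at 314, 308 and 309 CPM with TGF-b1/SB431542, at 138, 141 and 141 CPM with TGF-b1 alone and at 667, 658 and 651 CPM in mock, lower than mock in both treated groups. Igfbp6 and Igfbp2 changed by 0.82 ± 0.022 and -0.79 ± 0.082 log2. Igfbp4 lay at the mock level, with a log2 change of 0.012 ± 0.01, at 1897 ± 9.88 CPM with TGF-b1/SB431542, 222 ± 4.22 CPM with TGF-b1 alone and 1881 ± 5.67 CPM in mock. The libraries of Igfbp4 overlapped, and although the quasi-likelihood test called it, the 95% interval of -0.0076 to 0.032 log2, from the fit with a dispersion floor, includes 0.

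Notch genes were higher in 10 of 15 and lower in 3, at a median of 0.66 log2. Notch3, the receptor of mural cells, was at 320.3, 322 and 318 CPM with TGF-b1/SB431542 and at 81.6, 85.3 and 90.6 CPM in mock. The ligands Jag2 and Dll1 changed by 1.546 ± 0.16 and 2.37 ± 0.28 log2. Of the 5 tested targets 3 were higher, 1 lower and 1 not called, at a median of 0.63 log2. The lower one was Hes1, at -0.35 ± 0.058 log2. Notch3 is also counted among the pericyte markers, whose other members Abcc9 and Kcnj8 changed by 1.90 ± 0.097 and 1.54 ± 0.15 log2 and Des by -0.82 ± 0.035; their part in the Notch values was not tested.

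Angiopoietins and related genes moved strongly, 6 of 11 at least 1 log2 unit higher and 4 at least 1 lower. Angpt2, the context-dependent Tie2 ligand, was at 193, 186 and 191 CPM with TGF-b1/SB431542 and at 82.3, 79.1 and 78.8 CPM in mock, and Angpt4 at 24.1, 24.3 and 24.7 CPM with TGF-b1/SB431542 and 91.6, 91.4 and 93.3 CPM in mock. Angptl7, a secreted relative, was at 18.5, 20.1 and 17.3 CPM with TGF-b1/SB431542, at 0.426, 0.532 and 0.742 CPM with TGF-b1 alone and at 73.9, 72.2 and 70.6 CPM in mock, below mock in both. Angptl4, a PPAR target that inhibits lipoprotein lipase, changed by 1.66 ± 0.058 log2. Growth factors with receptor tyrosine kinases had 16 of 40 genes higher and 16 lower, or 20 higher and 13 lower with total counts. With TMM that was 40% in each direction, against 30.6% higher and 30.4% lower over all genes. The neurotrophin Bdnf was at 1.23, 1.03 and 1.38 CPM with TGF-b1/SB431542 and at 8.35, 9.48 and 9.59 CPM in mock, and its receptor gene Ntrk2 changed by 1.54 ± 0.19 log2. Pdgfc and Pdgfb, ligands of the PDGF receptors, changed by -1.29 ± 0.074 and 0.86 ± 0.05 log2. Met, the receptor for hepatocyte growth factor, was at 94.3 ± 0.696 CPM with TGF-b1/SB431542, 32.6 ± 1.78 CPM with TGF-b1 alone and 94.6 ± 2.61 CPM in mock, and was not called.

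Axon guidance genes, which also act between mesenchymal and endothelial cells, were higher in 15 of 35 and lower in 16, or 18 higher and 11 lower with total counts. With TMM these were shares of 42.9% and 45.7%, against 30.6% and 30.4% of all genes. Sema3d, a secreted semaphorin, was at 14.1, 15.8 and 15.1 CPM with TGF-b1/SB431542 and at 50.9, 52.1 and 50.3 CPM in mock, whereas Sema3g was at 14.7, 13.2 and 14.5 CPM with TGF-b1/SB431542 and 5.01, 4.95 and 5.31 CPM in mock. The netrin receptor Unc5b and the ligand Slit2 changed by -1.52 ± 0.021 and -1.45 ± 0.048 log2.

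Of 16 retinoid genes, Crabp2 among them, 9 were lower (56.2%) and 6 higher (37.5%), against 30.4% and 30.6% of all genes. Aldh1a3, which makes retinoic acid, was at 88.2, 92.2 and 91.8 CPM with TGF-b1/SB431542 and at 199, 199 and 195 CPM in mock. Cyp26b1, which degrades it, was at 101, 95.3 and 99.1 CPM with TGF-b1/SB431542, at 23.2, 20.1 and 22.99 CPM with TGF-b1 alone and at 42.1, 42.9 and 42.5 CPM in mock. Rbp4, which carries retinol in blood, changed by 2.17 ± 0.15 log2. Detoxification genes were higher in 14 of 31 and lower in 12, or 17 higher and 9 lower with total counts. Fmo2, a flavin monooxygenase of preadipocytes, was at 18.7, 17.9 and 15.1 CPM with TGF-b1/SB431542, at 1.62, 2.13 and 1.69 CPM with TGF-b1 alone and at 71.3, 63.3 and 64.7 CPM in mock. Cyp2e1, a cytochrome of adipocytes and liver, was at 6.49, 6.47 and 7.45 CPM with TGF-b1/SB431542, with 6 counts over the mock libraries. Targets of the oxidant sensor Nrf2 moved little, with Hmox1 not called at 0.037 ± 0.017 log2.

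Of 31 lysosomal genes 26 were higher and 2 lower, at a median of 0.28 log2, and the higher ones included all 11 cathepsins. Macrophages are rich in lysosomes, and the part of their higher markers, all 16 of 16, in these values was not tested. Lipa, the lysosomal acid lipase, was at 253, 250.3 and 238 CPM with TGF-b1/SB431542 and at 115, 119 and 123 CPM in mock. Atp6v0d2, a proton pump subunit of macrophages and osteoclasts, changed by 1.22 ± 0.074 log2, and Ctss, a cathepsin of antigen-presenting cells, by 0.89 ± 0.032. Of 34 cell cycle genes 20 were lower and 7 higher, at a median of -0.12 log2, or 13 lower and 9 higher with total counts. Ccnd1, cyclin D1, had the largest change of the list, at 156, 151 and 157 CPM with TGF-b1/SB431542, 18.2, 17.6 and 15.04 CPM with TGF-b1 alone and 52.6, 48.04 and 49.6 CPM in mock. Mki67, a marker of cycling cells, changed by -0.077 ± 0.021 log2 only. Cdkn1c, a cell cycle inhibitor, changed by -0.98 ± 0.071 log2.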

How the data were processed

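Polyadenylated RNA of primary preadipocytes was sequenced. The values are estimated counts per transcript, deposited by the authors in 1 table of 12 libraries in 4 groups; the submitters' processing notes name fastp, STAR, featureCounts and mm10, for which no version or setting is given, nor is strandedness or how reads were split between transcripts. Only 28.8% of the transcript values were whole (within 0.01). The 32709 transcripts were summed to 17001 gene symbols and rounded. Without known strand, overlapping and antisense genes, and near-identical copies, can share reads.

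Genes were filtered with filterByExpr and scaled by TMM. All 4 groups, the high-fat diet group included, were fitted together with edgeR 4.0.16 (R 4.3.3), so that they share 1 estimate of spread. The quasi-likelihood test was used, with Benjamini-Hochberg adjustment over 14078 genes. CPM use the same scaling. SEs and 95% intervals (1.96 SE) come from a fit with dispersions of at least 1e-04, since 3780 genes fell below that. The procedure was also run on simulated counts with few genes changed and a larger spread than many genes had here. That setting is unlike these data, so the run does not vouch for the calls.

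Genes named were check genes (Itga5, Acta2, Col1a1, Smad7, Pparg, Adipoq and 1 not reported here), the 15 called genes that rose most and the 15 that fell most (at least 10 CPM in the higher group, no overlap) and the 3 largest called changes in each direction of each list (at least 5 CPM); not all are printed. Other list members were chosen after their values were seen. The members and the gene lists were chosen with earlier results of these data known. Replicates were taken by label; same-numbered libraries did not deviate together, with correlations of -0.037 to -0.02 for the 3 pairs, so the numbers were not used as pairs. The table of differentiated cells was not used. Alternatives tried were other scalings, other filters, DESeq2 1.42.0, limma-voom (limma 3.58.1), a minimum fold, the 6 libraries alone, a replicate block, a dispersion floor, symbols on several chromosomes left out and each library left out. Promoters are RefSeq sequences of GRCm38.p6.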

Additional observations from a re-analysis of the deposited data

How the results depend on the processing

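Of 5202 values for the 289 genes taken by the naming rule (18 alternatives), 5146 kept their direction and their side of the threshold, 54 kept the direction and lost the call (31 genes, mostly when a change beyond 1.2-fold was required), and 2 turned. With total-count scaling Ckb turned to 0.025 and Cxcl12 to 0.0019 log2, against -0.084 and -0.11 with TMM. That scaling also left 2840 genes lower, against 4284. Requiring 1.2-fold left 2384 genes higher and 1750 lower, against 4303 and 4284, because small changes no longer counted. DESeq2 called 3597 higher and 4000 lower. Leaving out each library in turn gave 3951 to 4170 genes higher and 3894 to 4129 lower, and 1112 to 1149 higher and 412 to 438 lower by at least 1 log2 unit. With the replicate number as a block the counts were 4271 higher and 4268 lower; the numbers were not shown to pair the libraries. Depth limits genes such as Crabp2, with 9 counts over 3 libraries.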

Other observations

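Markers of adipose progenitor states did not move as blocks. Of the 16 markers of the Dpp4 and Pi16 type, which label the least committed progenitors, 9 were higher, 5 lower and 2 not called. Ly6c1, a surface antigen of these cells and of endothelium, was at 52.6, 53.7 and 48.8 CPM with TGF-b1/SB431542 and at 7.21, 7.78 and 8.48 CPM in mock. Ly6a, the stem cell antigen Sca-1, was at 299, 297 and 302 CPM with TGF-b1/SB431542 and at 82.1, 77.1 and 85.8 CPM in mock. Pi16 itself was not called, with a 95% interval of -0.22 to 0.21 log2. Fndc1 and Mfap5, matrix genes of the same cells, changed by -1.05 ± 0.041 and -1.16 ± 0.025 log2. Of 16 markers of committed preadipocytes, 7 were higher, 6 lower and 3 not called.

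Nuclear receptors were higher in 15 of 22 and lower in 2. Vdr, the vitamin D receptor, was at 9.74, 9.27 and 10.2 CPM with TGF-b1/SB431542 and at 23.99, 21.2 and 23.8 CPM in mock. Nr3c2, the mineralocorticoid receptor, changed by 1.58 ± 0.21 log2 and Thrb, a thyroid hormone receptor, by 0.94 ± 0.1. Meox2, a homeobox factor, was at 23.8, 23.4 and 25.1 CPM with TGF-b1/SB431542 and at 7.38, 5.87 and 8.48 CPM in mock. Immediate early genes were higher in 16 of 24 and lower in 6, Atf3 by 1.33 ± 0.086 log2 and Egr3 by -1.22 ± 0.087. Of the 14 tested thermogenic and beige adipocyte genes 8 were higher and 3 lower. Their summed level was 357 to 362 CPM with TGF-b1/SB431542 and 381 to 391 CPM in mock. The list held 22 genes, and Ucp1, Cidea, Elovl3, Cox7a1 and Cox8b were among those not tested. Kcnk3, a potassium channel, was at 11.1, 11.4 and 10.5 CPM with TGF-b1/SB431542 and at 4.04, 4.599 and 4.88 CPM in mock, while Acot11, a thioesterase, changed by -1.21 ± 0.11 log2.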
